A study of Homo sapiens with 2 samples.

Results

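The 10 long non-coding RNA (lncRNA) genes described here are NEAT1, MALAT1, NORAD, TUG1, OIP5-AS1, GAS5, SNHG1, H19, KCNQ1OT1 and HULC. Their peaks were taken from a deposited list of 175546 annotated regions of RNA that coprecipitated with CRTC2. Exon and intron peaks were given to the gene of that exon or intron, and all others to the gene the list assigns, with promoter-class peaks kept only where they lay inside the assigned transcript. By this assignment 87 of the 175546 peaks belonged to 8 of the 10 genes, and SNHG1 and HULC had none. The rule that chose the genes names them by symbol and contains no measured value, though earlier results of these data were known when it was written.

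The cells were HCCLM3, an established human hepatocellular carcinoma line of wild-type (WT) genotype. RNA bound in a precipitation of CRTC2, which coactivates CREB-driven transcription, formed 1 library, and the input RNA of the same line formed the other. The study asked which transcripts CRTC2 associates with, as part of work on the condensates it forms with YTHDF2, which reads the RNA mark N6-methyladenosine (m6A). There was no replicate and no precipitation with a control antibody, so no value below has a replicate error and RNA carried over without binding cannot be told apart from RNA bound to CRTC2.

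Long non-coding RNAs act without being translated. MALAT1 and NEAT1 are nuclear: MALAT1 gathers in nuclear speckles, which hold splicing factors, and NEAT1 is the scaffold of paraspeckles. NORAD is a mostly cytoplasmic RNA that binds Pumilio proteins at many repeated sites. GAS5 and SNHG1 host small nucleolar RNAs (snoRNAs), guides of ribosomal RNA modification that are cut from their introns. H19 and KCNQ1OT1 are imprinted RNAs of the same chromosomal region, and HULC was named for its high level in liver cancer.

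Each peak carries the authors' fold, a linear ratio of the precipitate over the input at the summit with 1 added to both. This addition makes the fold lower than the plain ratio of fragments to input level, most of all where both are small. Each peak also carries the authors' q, an adjusted p-value. The set of tests it was adjusted over is not stated in any source used here. From the fold and the p, the count of precipitated (RIP) fragments at a summit and the input level there were solved. The solution held for 100% of peaks within 0.001 on the −log10 scale. An interval after a fold treats the RIP count as Poisson (exact, 95%) with the input held fixed, and covers the counting error of the RIP fragments only. The error of the input is left out, although an input level of 0.634 corresponds to 1 input fragment. At their highest folds NEAT1 and H19 stood below that level, at 0.540 and 0.293. Over the whole list the median fold was 1.89 and the median summit had 2 RIP fragments, with 49 at most. Every listed peak had a −log10 p of at least 1.30, so the list holds only peaks already selected for an excess over input. The interval lay above 1 for 26.3% of all peaks and for 62.3% of those with at least 10 fragments. No source used here gives the library totals. Of 12 hepatocyte and liver cancer markers, 8 held a peak summit inside the gene, among them ALB with a highest fold of 3.67 and AFP with 2.91, and 1 was called (a q of at most 0.05, which 11.6% of all genes with a summit reached), APOB at 3.88 on 3 fragments. APOA1, TTR, SERPINA1 and EPCAM held no summit. By assignment 10 of the 12 had a peak, among them APOA1 (highest fold 2.73 on 2 fragments) and TTR (1.81 on 10). Of 7 markers of blood, endothelial and fibroblast cells, 3 held a summit (PECAM1, VWF and LUM, with highest folds of 3.88, 2.91 and 2.49 on 2 or 3 fragments), of which PECAM1 was called, and PTPRC, CD3E, HBB and COL1A1 held none. By assignment 2 of these 7 had a peak. The part of other cells in the results was not tested. A peak list shows where precipitated RNA exceeded input, so a gene without a peak may still be expressed.

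The 87 peaks showed folds like those of the list as a whole. Their median fold was 1.87, their median summit held 2 RIP fragments, and 36 (41.4%) rested on 1 fragment, beside 46.2% of all peaks. A peak on 1 fragment cannot exceed a fold of 1.94 in this list, which holds the medians of such sets close together. Of the 87 peaks 1, in NORAD, was called. This is 1.15% (exact binomial 95% interval 0.0291 to 6.24%), beside 1.63% of all peaks. None of the 87 reached a fold of at least 4, beside 1.63% of all peaks. Counted by gene, 1 of 8 genes with a peak held a called peak, beside 12.2% of all 15617 genes with a peak. In the 9337 peaks of other RefSeq lncRNA genes the median fold was 1.89, and 83 (0.889%) reached this q.

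Assignment in the list and position on the genes differed. Of the 87 peaks, 64 had their summit inside the RefSeq span of the gene they were assigned to, and 23 lay outside it. Another 26 summits lay inside 1 of the genes but were listed for a different one. Of these 26, 8 were listed for snoRNA genes, 11 for microRNA genes, 4 for MASCRNA, the small RNA cut from the 3′ end of MALAT1, and 3 for OIP5 or KCNQ1. In all, 90 summits lay inside 9 of the 10 genes. Their median fold was 1.93, their median summit held 3 RIP fragments, and 1 of 90 (1.11%) reached a q of at most 0.05. The deposited peaks carry no strand, so reads of a gene and of an overlapping gene on the opposite strand cannot be told apart. The descriptions below follow the summits inside each gene.

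**Figure D1:**
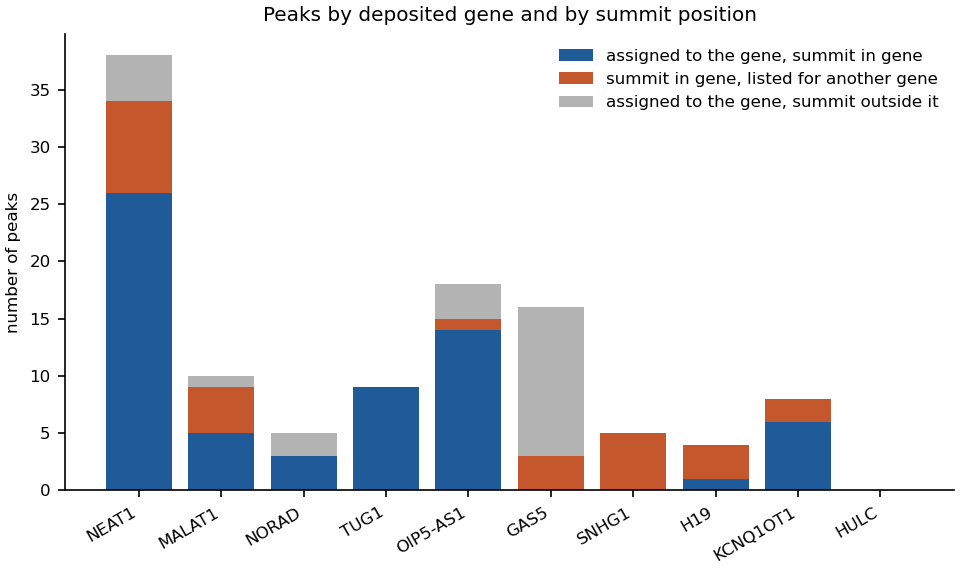
Number of peaks (y axis) for each of the 10 genes (x axis), stacked by whether the deposited list assigned the peak to the gene and whether its summit lay in the gene's RefSeq span. All 5 SNHG1 summits and all 3 GAS5 summits were listed for other genes, and the 13 peaks assigned to GAS5 lay outside it.

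NORAD held the peak at a q of at most 0.05. Its 3 peaks lay end to end over the single exon (RefSeq span chromosome 20, 36045618 to 36050960, minus strand, 5343 bp) and covered 91.7% of it. The peak at the 3′ end (36045710 to 36046824, summit 5.18 kb from the 5′ end) had a fold of 3.01 (1.95 to 4.46) on 23 RIP fragments at an input level of 6.97, with a −log10 q of 1.66. The middle peak (36047008 to 36048415) had a fold of 1.81 (1.20 to 2.62) on 26 fragments at an input level of 13.9. The 5′ peak (36048569 to 36050943) had a fold of 2.03 (1.37 to 2.90) on 28 fragments at 13.3. The 3 summits held similar numbers of RIP fragments, and the input level was lowest at the 3′ end, where the fold was highest. The 3 intervals overlapped one another and all lay above 1. The called peak is 1115 bp wide and drops out when peaks are limited to 1 kb, which leaves 0 called peaks in the 10 genes. The highest summit of NORAD ranked 7 among 1795 lncRNA genes with an assigned peak by RIP fragments, while its highest fold ranked 398. A pair of further peaks assigned to NORAD lay upstream in intergenic sequence, with folds of 2.89 on 2 fragments and 1.89 on 1 fragment.

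At NORAD, OIP5-AS1 and MALAT1 a peak with its summit in the gene reached into a start-site window. RefSeq promoter windows (GRCh38.p14, 250 bases before to 50 after a start) were found for 7 of the 10 genes, with 8 windows in all, of which 3 overlapped such a peak. The windows are shown 5′ to 3′ on the gene's own strand, and capitals mark the bases under a peak: 33 bases in NORAD (chr20:36050911-36051210, minus strand), 28 in OIP5-AS1 (chr15:41283740-41284039, plus strand) and 27 at an internal start of MALAT1 (chr11:65498795-65499094, plus strand).
NORAD: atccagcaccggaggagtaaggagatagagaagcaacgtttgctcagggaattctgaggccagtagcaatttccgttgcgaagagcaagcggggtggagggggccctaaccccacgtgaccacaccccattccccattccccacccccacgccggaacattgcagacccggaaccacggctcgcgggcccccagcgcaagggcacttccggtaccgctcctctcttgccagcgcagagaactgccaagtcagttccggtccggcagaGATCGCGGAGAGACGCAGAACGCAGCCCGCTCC
OIP5-AS1: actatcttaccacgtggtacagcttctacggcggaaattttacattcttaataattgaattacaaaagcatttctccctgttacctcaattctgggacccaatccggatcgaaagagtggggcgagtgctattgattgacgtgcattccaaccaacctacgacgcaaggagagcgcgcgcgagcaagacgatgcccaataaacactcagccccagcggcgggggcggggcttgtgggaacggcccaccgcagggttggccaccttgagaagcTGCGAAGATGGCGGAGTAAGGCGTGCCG
MALAT1: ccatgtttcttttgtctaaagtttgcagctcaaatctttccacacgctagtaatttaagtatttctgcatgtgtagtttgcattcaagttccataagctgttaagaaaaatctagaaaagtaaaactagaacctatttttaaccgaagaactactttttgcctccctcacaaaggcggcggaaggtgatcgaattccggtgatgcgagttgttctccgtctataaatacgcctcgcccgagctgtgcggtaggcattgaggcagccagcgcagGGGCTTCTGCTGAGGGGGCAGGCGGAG
In each window the capitals form the very end, so each peak began after the annotated start, and all 3 ran on beyond the window. The full palindromic CREB site, TGAC joined to its reverse complement GTCA, was in none of the 8 windows and in 1.85% of 35116 windows of 300 bases. Its shorter form TGACG, which is part of the full site and was searched on both strands, was in the OIP5-AS1 window and in the window of the outer MALAT1 start, and in 24.6% of all windows. The m6A core GGACT, searched on the transcript strand, was in 1 window each of H19 and MALAT1 and in 25.3% of all windows. These matches describe letters only.

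MALAT1 had the highest RIP fragment number at a summit and the lowest median fold of the 9 genes. Its RefSeq span is chromosome 11, 65497738 to 65506516 (plus strand, 8779 bp), and 9 summits lay in it between 1.82 and 8.09 kb from the 5′ end. They held 10 to 30 RIP fragments, with a median of 22, at input levels from 4.87 to 18.4. The folds ran from 1.45 to 2.03 with a median of 1.67, and no peak had a −log10 q above 0. From the 5′ to the 3′ end the 9 folds were 1.65, 1.45, 1.48, 1.61, 1.92, 1.67, 1.85, 2.03 and 1.87. The 4 nearest the 5′ end lay below the other 5, but the intervals of all 9 overlapped. The highest summit in fragments (65499068 to 65499870) had 30 at an input level of 17.7 and a fold of 1.65 (1.13 to 2.34). The highest fold (65505403 to 65505526), near the 3′ end, was 2.03 (1.26 to 3.11) on 19 fragments at an input level of 8.87. Among 1795 lncRNA genes with an assigned peak MALAT1 ranked 3 by RIP fragments. By highest assigned fold it ranked 1150, through a peak of 1.94 on 1 fragment that lay outside the gene. The interval lay above 1 for 6 of 9 peaks, beside 62.3% of all peaks with at least 10 fragments. No peak overlapped MASCRNA (65506117 to 65506174), although the list's gene column held it for 6 of the 9 peaks, 4 of them in the promoter class. All 9 summits also lay in TALAM1, the antisense RNA of this locus.

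Peaks with many fragments had folds near those of the whole list. Of the 90 summits in the 10 genes, 14 held at least 10 RIP fragments, 9 of them from MALAT1 and the others from NORAD, H19 and OIP5-AS1, and their median fold was 1.83. The median of 1.67 in MALAT1 lay below this. Over all 14690 peaks with at least 10 fragments the median fold was 1.81, and over the 291 of other lncRNA genes it was 1.88. Of these 14 peaks 1 was called, against 3.40% of the 14690. Across the 90 summits Spearman's rho between fold and input level was 0.0238, given as a description, since the summits share 2 libraries and the fold contains the input level.

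**Figure D2:**
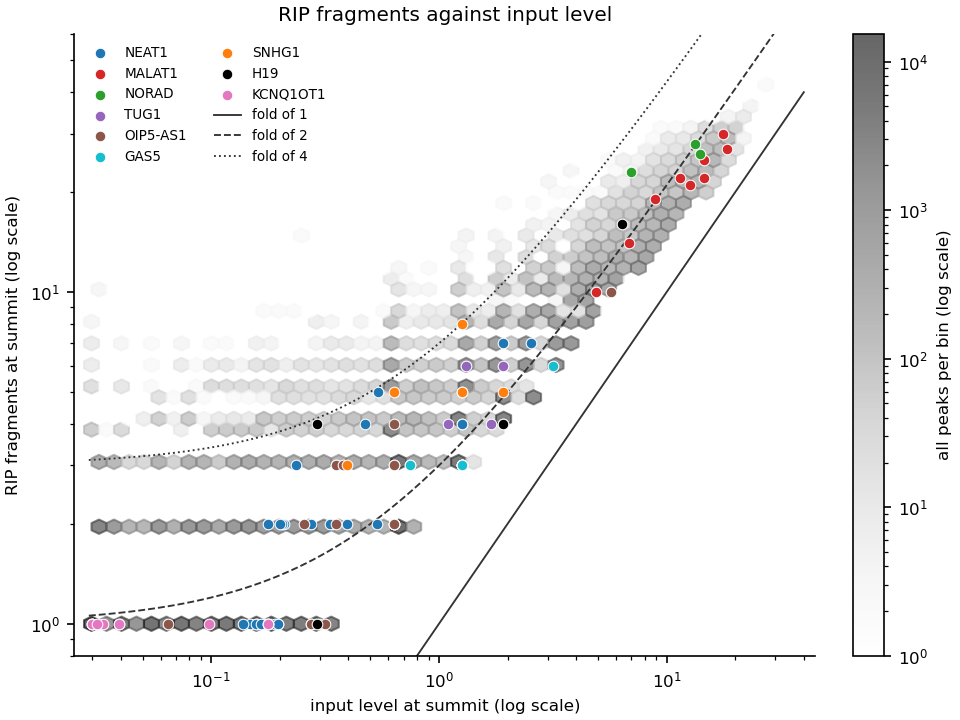
RIP fragments at the summit (y axis, log scale) against the local input level (x axis, log scale) for the 90 summits inside the genes, over all 175546 peaks in grey bins, with lines at folds of 1, 2 and 4. MALAT1 and NORAD sit at 10 to 30 fragments, NEAT1 at 1 to 7, and all KCNQ1OT1 summits at 1 fragment.

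NEAT1 had the most peaks of the 10 genes. Its span (chromosome 11, 65422798 to 65445540, plus strand, 22743 bp) held 34 summits, or 1.49 per kb, and the peaks covered 22.1% of it. Folds ran from 1.57 through a median of 1.89 to 3.90, on 1 to 7 RIP fragments, and 13 of the 34 peaks rested on 1 fragment. None reached a q of at most 0.05. The highest peak (65426329 to 65426375, 3.56 kb from the 5′ end) had a fold of 3.90 (1.70 to 8.23) on 5 fragments, with a −log10 q of 0.649. The next lay at 17.7 kb (65440456 to 65440633, fold 3.40, 1.42 to 7.64, 4 fragments) and at 22.1 kb (65444854 to 65445056, fold 3.24, 1.31 to 7.90, 3 fragments). These 3 intervals overlap, so no order among the positions can be read from them.

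NEAT1 is made as a short and a long isoform that share the 5′ end, and the long form is the one needed for paraspeckles. The part shared by both in the deposited annotation (65422798 to 65426532, 3735 bp) held 4 summits with 4 to 7 RIP fragments, a median input level of 1.58 and a median fold of 2.51. The part of the long isoform alone (65426533 to 65445538, 19006 bp) held 30 summits with 1 to 4 fragments, a median input level of 0.206 and a median fold of 1.84. Fragment numbers were higher in the shared part and overlapped only at 4. The median input level was also higher there, but input levels overlapped. They ran from 0.540 to 2.53 in the shared part and from 0.137 to 1.27 in the long isoform alone. Among the 30 summits, 13 rested on 1 fragment, which caps their fold at 1.94, and none of the 4 in the shared part did. The list's gene column held MIR612, a microRNA gene near the 3′ end, for 22 of the 34 peaks. A single peak (fold 1.84 on 2 fragments) overlapped MIR612 itself (65444458 to 65444557). The peaks assigned to NEAT1 but outside it were 3 in FRMD8, the upstream neighbour, and 1 in intergenic sequence.

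**Figure D3:**
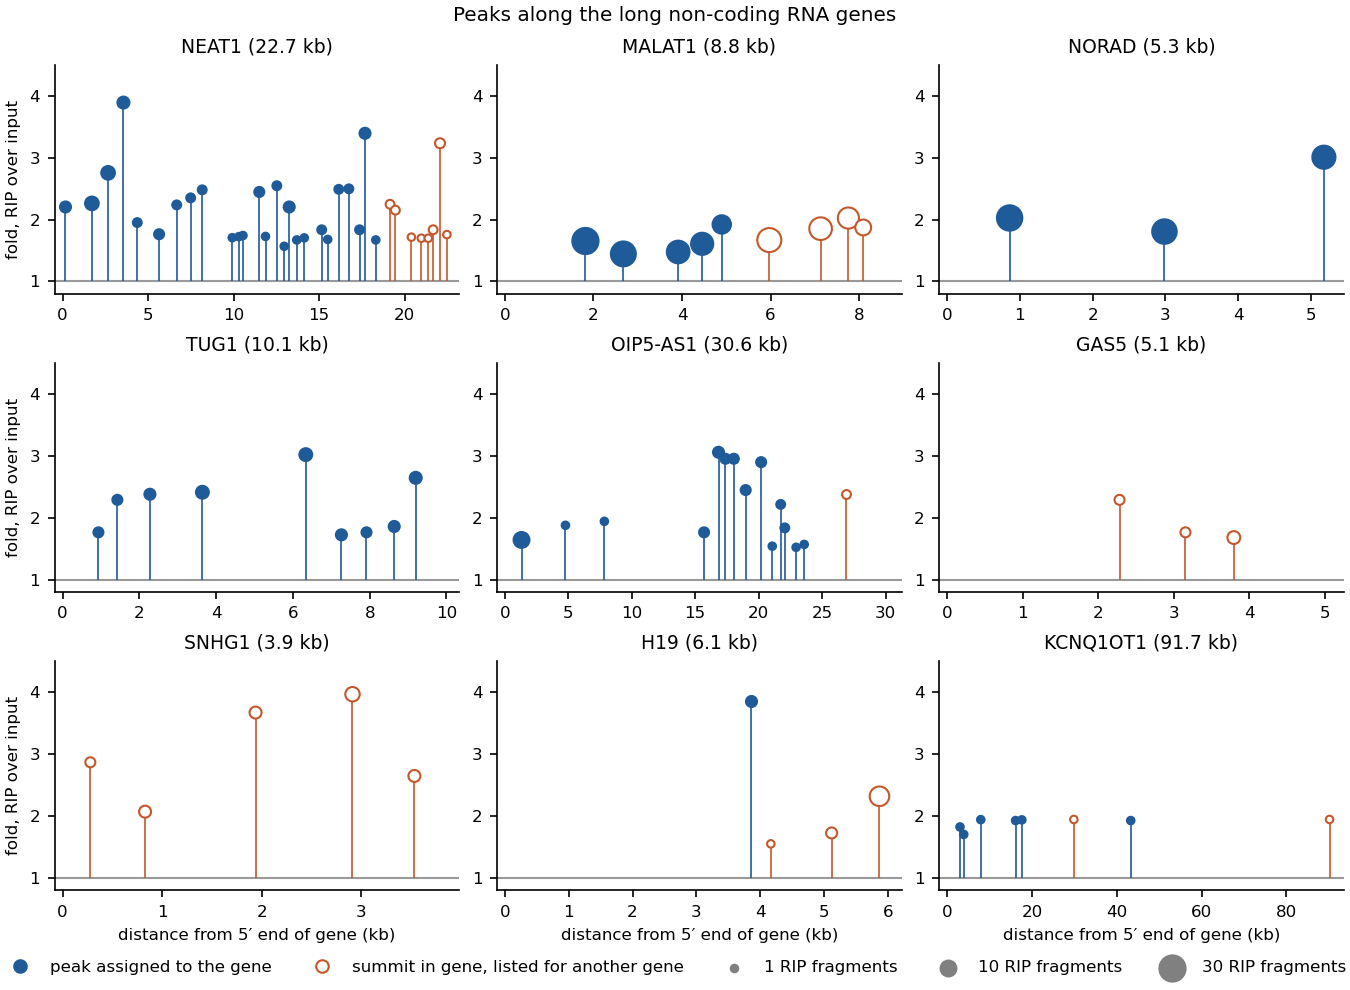
Fold of each peak (y axis, linear) against the distance of its summit from the 5′ end of the gene in kb (x axis) for the 9 genes with a summit inside. Filled blue points were assigned to the gene and open orange points were listed for another gene, and point size follows the RIP fragments. NEAT1 carries 34 summits along its whole length, NORAD 3, and the 11 summits of the last OIP5-AS1 exon stand between 15.7 and 23.6 kb.

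SNHG1, which had no peak by assignment, held the highest fold of the 90 summits. Its span (chromosome 11, 62851978 to 62855885, minus strand, 3908 bp) contained 5 summits, all listed as promoter-class peaks of snoRNA genes. The highest (62852943 to 62853091) overlapped SNORD22 (62852910 to 62853035) and had a fold of 3.97 (1.96 to 7.39) on 8 RIP fragments at an input level of 1.27, with a −log10 q of 0.893. The next (62853935 to 62853965) lay wholly within SNORD29 (62853904 to 62853968), at a fold of 3.67 (1.61 to 7.75), on 5 fragments. The peaks over SNORD25 (62855565 to 62855631) and SNORD27 (62855012 to 62855083) had folds of 2.87 (1.16 to 7.00) on 3 fragments and 2.07 (0.904 to 4.37) on 5. The fifth peak, at the 3′ end (62852199 to 62852474), overlapped no snoRNA. Its fold was 2.65 (1.16 to 5.59) on 5 fragments. Thus 4 of the 5 summits lay inside a snoRNA, and 4 of the 9 snoRNAs of SNHG1 held a summit. The interval lay above 1 for 4 of the 5 peaks and none reached a q of at most 0.05. Reads of the mature snoRNA, of the excised intron and of the unspliced host cannot be told apart in these peaks.

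GAS5 differed from SNHG1 in where its summits lay. Its span (chromosome 1, 173863901 to 173869045, minus strand, 5145 bp) held 3 summits with folds of 2.29 (0.927 to 5.59), 1.76 (0.714 to 4.31) and 1.68 (0.768 to 3.37) on 3, 3 and 6 RIP fragments. None of the 3 intervals lay above 1. Of its 11 snoRNAs, 2 were touched by a peak, SNORD44 and SNORD76, and none held a summit. The snoRNA positions were compared after both sets of values were seen, and the difference between the hosts rests on 5 and 3 peaks and was not tested. All 13 peaks assigned to GAS5 lay in the 3′ UTR class inside ZBTB37, the neighbouring zinc finger gene on the opposite strand, and are not GAS5 peaks by position.

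H19 held 4 summits, all within its 2.70 kb transcript (chromosome 11, 1995176 to 1997875, minus strand). The highest fold (1997394 to 1997463) was 3.87 (1.62 to 8.70) on 4 RIP fragments at an input level of 0.293, with a −log10 q of 0.810. The most fragments lay at the 3′ end (1995257 to 1995411), with 16 at an input level of 6.34 and a fold of 2.32 (1.38 to 3.68). The remaining peaks had folds of 1.72 on 4 fragments and 1.55 on 1 fragment, with intervals that included 1. The 3 peaks other than the highest were listed for MIR675, the microRNA cut from the first exon of H19. The hairpin itself (chr11:1996759-1996831, minus strand) lay between peaks, 137 bases from the nearest one on its 5′ side and 242 from the nearest on its 3′ side, and 0 peaks overlapped it. The RefSeq hairpin is shown with its mature arms in capitals, because the list names MIR675 for peaks that do not contain it. The mature arms follow with the seed, bases 2 to 8, in capitals.
MIR675 hairpin: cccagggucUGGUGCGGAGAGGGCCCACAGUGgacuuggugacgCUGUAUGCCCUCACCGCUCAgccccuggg
hsa-miR-675-5p: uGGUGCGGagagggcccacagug
hsa-miR-675-3p: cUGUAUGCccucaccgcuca
The seeds of the 5p and 3p arms differ. All 4 summits also lie in the span of MRPL23, a ribosomal protein gene. A peak of 82.7 kb that begins at the outer H19 start had its summit 74.7 kb away and was not counted.

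OIP5-AS1, also known as cyrano, has a deeply conserved site for the microRNA miR-7. It carried its highest folds in the last exon. Its span (chromosome 15, 41282697 to 41313338, plus strand, 30642 bp) held 15 summits, and 11 of them lay in exon 4 of 4 of the deposited transcript, between 41298323 and 41306371. In this exon the folds ran from 1.52 through a median of 2.22 to 3.06 on 1 to 4 RIP fragments. The highest peak (41299514 to 41299560) had a fold of 3.06 (1.28 to 6.88) on 4 fragments, and 4 of the 11 intervals lay above 1. The 5′ peak shown above (41284012 to 41284054) had the most fragments, 10, at an input level of 5.70 and a fold of 1.64 (0.865 to 2.89). The intron peak (41289000 to 41293361) rested on 1 fragment at the lowest input level of the list, 0.0298. A peak with a fold of 2.39 on 2 fragments lay where OIP5-AS1 and OIP5 overlap and was listed for OIP5. No OIP5-AS1 peak had a −log10 q above 0.

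TUG1, an abundant RNA tied to Polycomb and to retinal development, had 9 peaks, all assigned to it and all with the summit inside the gene (chromosome 22, 30969265 to 30979395, plus strand, 10131 bp). RefSeq now classes it as protein-coding. The folds ran from 1.72 through a median of 2.29 to 3.02 on 3 to 6 RIP fragments, so that no TUG1 peak rested on 1 fragment. From the 5′ to the 3′ end they were 1.76, 2.29, 2.38, 2.41, 3.02, 1.72, 1.76, 1.86 and 2.65. The last exon held 5 of the 9 peaks, with its highest folds in the first and the last of them, and the intervals of all 9 overlapped. The highest (30975240 to 30975622, exon 3 of 3) had a fold of 3.02 (1.38 to 6.07) on 6 fragments at an input level of 1.32. The second (30978453 to 30978841), in the same exon near the 3′ end, had 2.65 (1.16 to 5.59) on 5 fragments. The intervals of 3 of the 9 peaks lay above 1 and no −log10 q was above 0.

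KCNQ1OT1, an antisense RNA that silences neighbouring imprinted genes, had the weakest evidence of the genes with a summit. Its span (chromosome 11, 2608328 to 2699994, minus strand, 91667 bp) held 8 summits, and each of them rested on 1 RIP fragment. The folds lay between 1.70 and 1.94 at input levels from 0.0298 to 0.177. All 8 intervals included 1, but for any peak on 1 fragment this is fixed in advance. Even at 0.0298, the lowest input level of the list, such an interval reaches from 0.996 to 6.38. The peaks covered 89.4% of the span, as they ran up to 121 kb wide. KCNQ1 runs over the whole span on the opposite strand, and 2 of the 8 peaks were annotated to its exons.

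HULC (chromosome 6, 8652269 to 8653856, plus strand, 1588 bp) held no summit. The list assigned to it a peak of 1373 kb at a fold of 2.91 (1.21 to 7.99), on 2 RIP fragments, whose summit lay 988 kb from the gene. The symbol column also named HULC for a peak of LOC100506207, an overlapping lncRNA gene, resting on 1 fragment at 217 kb from HULC. Neither was counted. A gene without a listed peak has no value here.

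Ordered by the highest fold inside the gene, SNHG1 stood at 3.97, NEAT1 at 3.90, H19 at 3.87, OIP5-AS1 at 3.06, TUG1 at 3.02, NORAD at 3.01, GAS5 at 2.29, MALAT1 at 2.03 and KCNQ1OT1 at 1.94. Every pair of neighbours in this order had overlapping intervals. The interval of NORAD, the narrowest of the first 6, reached from 1.95 to 4.46 and overlapped that of each other gene. By RIP fragments at the highest summit the order was another one: MALAT1 30, NORAD 28, H19 16, OIP5-AS1 10, SNHG1 8, NEAT1 7, TUG1 and GAS5 6 each, and KCNQ1OT1 1. The median over the 9 genes of their highest fold was 3.02, beside 2.78 for the 19488 genes with a summit inside and 1.94 for the 4172 lncRNA genes among them. These genes were chosen as abundant RNAs, and a gene with more summits has more chances of a high fold: the 9 genes held a median of 8 summits, against 2 in lncRNA genes. Of the 9 genes 1 held a called peak, against 11.6% of the 19488 genes.

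**Figure D4:**
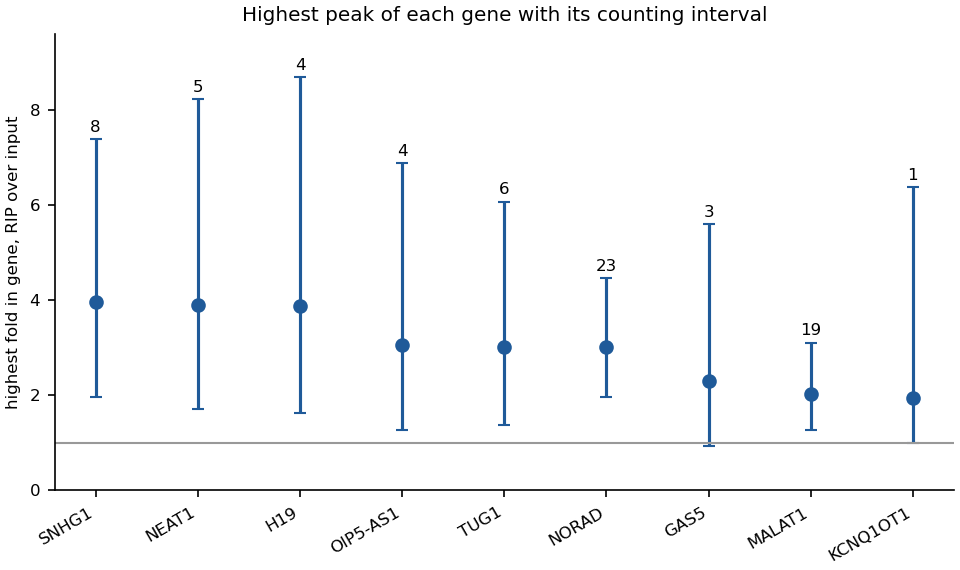
Highest fold inside each gene (y axis, linear from 0) for the 9 genes with a summit (x axis), with exact Poisson 95% intervals as bars and the number of RIP fragments printed above each. The intervals of all 9 genes overlap, and the bars are shortest for MALAT1 on 19 fragments and NORAD on 23.

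Proteins that work with these RNAs are encoded by transcripts with peaks of their own. PUM2, which encodes a Pumilio protein that binds NORAD, was called with a highest fold of 5.10 (2.33 to 10.2) on 6 RIP fragments, an interval that overlaps that of the NORAD peak at 3.01. Among 13 partners of NORAD and H19, all 13 held a summit inside the gene (11 by assignment) and 2 were called. The m6A readers IGF2BP2 and IGF2BP3 reached 3.97 on 8 and 3.75 on 4 fragments without a called peak. The median of the highest folds of this list was 3.06.

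Paraspeckle and nuclear speckle protein genes held a summit in 20 of 21 cases, with 2 called and a median highest fold of 2.83. MATR3, a nuclear matrix protein gene, was called at 4.28 on 4 fragments. SON, a scaffold of speckles, stood at 3.33 on 15 fragments and CPSF6 at 3.19 on 3, without a call. By assignment all 21 had a peak and 3 were called, the third being TAF15, whose peaks (highest fold 5.44 on 5 fragments) lay on an alternative contig. The core paraspeckle genes NONO, SFPQ and PSPC1 reached 2.03, 2.55 and 2.45.

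Of 26 other non-coding RNA genes, 20 held a summit (17 had a peak by assignment) and 2 were called, with a median highest fold of 2.14. DANCR, a host of snoRNAs, reached 4.12 on 7 fragments without a call, LINC-PINT 3.88 on 3 with a call, FTX 3.58 on 3 and JPX 3.36 on 3. FGD5-AS1 was called at 3.31 (2.01 to 5.19) on 17 fragments, a pattern of many fragments and a fold near 3 that resembles the NORAD peak. By assignment 3 of the 26 were called, the third being LINC00665 at 3.78 on 3 fragments. Of 14 other snoRNA hosts, 11 held a summit (10 by assignment) and 2 were called, SNHG14 at 5.56 on 5 fragments and SNHG17 at 4.40 on 4, while SNHG12 stood at 3.06 and SNHG15 at 2.51. By assignment 1 was called, SNHG14, and the highest fold of SNHG17 was 1.73 on 1 fragment. SNHG14 held 148 summits in its span, 8 of them called, but only 40 peaks, 1 of them called, by assignment. The median highest fold of the snoRNA hosts was 2.37. The genes called in these lists, 2 of 13, 2 of 20, 2 of 20 and 2 of 11 with a summit, stand beside 11.6% of all genes with a summit.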

How the data were processed

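The tools named in the submitters' processing notes are HISAT2 and MACS2, on hg38. Their versions, their settings and the treatment of identical reads are not stated in any source used here. The authors deposited a peak list with a fold (a linear ratio), a −log10 p, a −log10 q and a score per peak. The headers of the −log10 p and −log10 q columns were spoiled before deposit and were identified by place and values. The deposited score carries the −log10 p on another scale and was not used. The control behind the fold is treated as the input library.

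RIP fragments k and input level λ were solved from fold = (k + 1)/(λ + 1) and a Poisson tail p. A single whole number met both for 97.5% of peaks, and for 87 of the 90 summits in the genes; otherwise the closest was taken. An input level of 0.634 corresponds to 1 input fragment, and the lowest was 0.0298. The solving step was tested on data simulated from these same formulas, with fragment numbers spread evenly, unlike those of the list. Such a test checks the arithmetic and cannot show that the formulas match the peak caller. The genes, lists and rules were chosen with earlier results of these data known. The deposited symbol column named 8 of the 10 genes; TUG1 and SNHG1 were linked by RefSeq identifiers (GRCh38.p14), which also gave gene spans. Named genes of other lists were those of highest fold inside the gene, up to 4 a list; called genes beyond these, the core paraspeckle genes and the small structural RNAs were added after their values were seen. Results for some items of these lists are not reported here. Called means a q of at most 0.05, the authors' value. With 1 library a group no test was possible. Alternatives concerned assignment, promoter and intron classes, q, fold, fragments, width and merging. Python 3.11.15, pandas 2.3.3 and scipy 1.17.1 were used.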

Additional observations from a re-analysis of the deposited data

How the results depend on the processing

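The 87 assigned peaks, the 8 genes with a peak, the 1 called gene, the median fold of 1.87, the called share of 1.15% and the median highest fold of 3.02 were recomputed under 10 alternatives and 1 added after the data were seen, in which the summit also had to lie in the gene. Limits on the list changed them most, as limits select peaks. At a q of at most 0.05 there remained 1 peak in 1 gene, with a fold of 3.01 and a called share of 100%. At a fold of at least 4 there were 0 peaks, 0 genes and 0 called genes, and no fold could be given. With at least 5 RIP fragments there were 19 peaks in 5 genes with a median fold of 1.98. Up to 1 kb wide, 0 genes were called and the called share was 0%, since the called NORAD peak is 1115 bp wide; the highest NORAD fold was then 1.89. Merging peaks within 1 kb left 25 peaks with a median fold of 2.38. Assignment by identifier alone (80 peaks), by summit (90), without promoters (73), with all promoter peaks (91), with exonic and promoter peaks only (64) and with assignment and summit both in the gene (64) kept each count within 1.5 times. The median fold stayed within an interval from order statistics over the peaks, 1.82 to 1.94. For the median highest fold such an interval is the whole range of the 8 genes, 1.94 to 3.90. The called share stayed within its exact binomial interval. Of 67 highest folds of single genes under the alternatives, 66 lay within the interval of the gene's highest assigned peak. For MALAT1 and GAS5 that peak lay outside the gene, with wide intervals of 0.996 to 6.38 and 0.991 to 5.98. SNHG1 and HULC had no assigned peak and were left out. An alternative that keeps the same highest peak agrees by construction. No paired analysis was possible because each group holds 1 library. Intervals of the highest folds rest on 1 to 23 fragments, and this depth sets no order among the 9 genes.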

Other observations

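Abundant small structural RNAs, chosen after their values were seen, carried many RIP fragments at folds from 1.55 to 1.77. Over all peaks with at least 10 fragments the median fold was 1.81 and the lower quartile 1.63. The signal recognition particle RNA RN7SL1 held 49 fragments at its summit, the most of the list, with a fold of 1.77. RPPH1 and RMRP, the RNA parts of RNase P and of RNase MRP, held 33 and 31 with folds of 1.65 and 1.77. RN7SK, the RNA that restrains the elongation factor P-TEFb, held 33 at its summit inside the gene, with a fold of 1.55. None of these summits was called. MALAT1 stands beside them with 30 fragments and a fold of 1.65. RN7SL1 and RN7SK have many near-identical copies, so the origin of their reads is uncertain.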
